A study of Mus musculus with 20 samples.

Results

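The 7 maternally methylated imprinting control regions of mouse chromosomes 6 and 7 that were followed here are named after the genes *Peg10*, *Mest*, *Nap1l5*, *Peg3*, *Snrpn*, *Inpp5f* and *Kcnq1ot1*. Each was taken as a fixed window of the mm9 build, and the calls of all CpG positions with at least 5 reads in the window were pooled in each of the 20 libraries. The windows were chr6:4696500-4699800 for *Peg10*, chr6:30685500-30689500 for *Mest*, chr6:58856000-58858000 for *Nap1l5*, chr7:6679000-6685500 for *Peg3*, chr7:67146500-67151500 for *Snrpn*, chr7:135831000-135833000 for *Inpp5f* and chr7:150480500-150483500 for *Kcnq1ot1*. They held 132 of the 2262552 CpG positions that reached 5 reads in at least 1 library of the series. Exons and introns within the windows are not given, since an annotation of this build was not used here.

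The libraries were made by reduced representation bisulfite sequencing, which reads cytosine methylation near the sites of the enzyme MspI and does not separate 5-methylcytosine from 5-hydroxymethylcytosine. There were 10 groups of 2 libraries: oocytes, sperm, and the maternal (Mat) and paternal (Pat) pronuclei of zygotes from WT or CKO mothers, cultured without (mock) or with aphidicolin (Aphi), an inhibitor of the replicative DNA polymerases. The mothers were 7 to 10 weeks old and carried either f/f alleles of *Tet3* (WT) or f/- alleles with Zp3-Cre (CKO). Zp3-Cre is active in growing oocytes, so the deletion concerns the Tet3 that the egg supplies; the sperm came from C57BL/6J males in both genotypes, and no library of this series measured Tet3 itself. Aphidicolin was given at 3 µg/ml from 5 h after fertilisation, pronuclei were taken out at 12 h and frozen at 13 h, and maternal and paternal pronuclei were told apart by their size and their distance from the polar body. A library typically held about 20 pronuclei and was amplified with 21 PCR cycles. Whether the 2 libraries of a group go back to different mice is not stated, and the p-values below measure only the spread between these libraries, which may be technical.

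Imprinted genes are expressed from the chromosome of 1 parent. Their control regions receive DNA methylation in the germ line of 1 parent, here the oocyte, and keep it on that parent's chromosome while most other gametic methylation is lost after fertilisation. Protection is known to involve ZFP57, a zinc finger protein that binds a methylated hexanucleotide and recruits TRIM28 (KAP1) with H3K9 and DNA methyltransferases. Tet3 oxidises 5-methylcytosine in the zygote, most visibly in the paternal pronucleus, and replication without maintenance methylation dilutes the mark. *Peg10* is a retrotransposon-derived gene needed for the placenta, and *Mest* encodes a protein of the alpha/beta hydrolase fold. *Nap1l5* is an intronless member of the nucleosome assembly protein family, *Peg3* encodes a zinc finger protein and *Snrpn* a protein of the spliceosome. *Inpp5f* encodes an inositol phosphatase with an imprinted short transcript, and *Kcnq1ot1* is a long non-coding RNA that silences its neighbours on the paternal chromosome.

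The hexanucleotide TGCCGC bound by ZFP57 was looked for on both strands of the RefSeq promoter sequences (250 bases before to 50 after the start, build GRCm38.p6), of which 11 matched the names of 6 of the 7 genes. It was found in 4 of the 11, against 11.6% of the 32851 promoters in the table, whose median number of CpGs is 7. No share is given for promoters of like CpG number, although a CpG is part of the hexanucleotide. The sequences below show where it lies in *Mest* (chr6:30737803-30738102, + strand), *Nap1l5* (chr6:58907077-58907376, - strand) and *Snrpn* (chr7:60005150-60005449, - strand), with the hexanucleotide or its reverse complement in capitals; the fourth is a second *Mest* start that overlaps the one shown.
Mest: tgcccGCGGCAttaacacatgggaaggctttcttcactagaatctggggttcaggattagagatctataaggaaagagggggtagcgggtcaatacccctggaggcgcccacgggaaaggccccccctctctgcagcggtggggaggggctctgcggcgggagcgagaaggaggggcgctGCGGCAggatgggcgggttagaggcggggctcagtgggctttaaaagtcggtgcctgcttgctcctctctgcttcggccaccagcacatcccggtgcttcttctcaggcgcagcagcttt
Nap1l5: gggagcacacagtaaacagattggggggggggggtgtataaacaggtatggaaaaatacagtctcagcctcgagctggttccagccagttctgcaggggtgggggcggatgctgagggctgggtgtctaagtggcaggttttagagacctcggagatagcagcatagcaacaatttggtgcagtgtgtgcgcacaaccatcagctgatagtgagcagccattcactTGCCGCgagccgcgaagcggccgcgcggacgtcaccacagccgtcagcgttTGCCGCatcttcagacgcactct
Snrpn: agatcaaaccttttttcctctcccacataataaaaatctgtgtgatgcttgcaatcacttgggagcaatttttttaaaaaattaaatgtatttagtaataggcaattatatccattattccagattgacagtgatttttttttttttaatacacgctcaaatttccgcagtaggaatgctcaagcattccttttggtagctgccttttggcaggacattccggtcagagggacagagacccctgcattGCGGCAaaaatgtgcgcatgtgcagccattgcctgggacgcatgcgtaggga
These letters do not occur in the promoter sequences given for *Peg3*, *Inpp5f* and *Kcnq1ot1*. The sequences are promoters of the named genes, and the windows themselves were not searched for the hexanucleotide. The *Snrpn* promoters lie between 60005150 and 60450427 of chromosome 7 in GRCm38.p6, so they cannot all lie in the 5001-bp *Snrpn* window. The hexanucleotide occurs at 2 places in the *Mest* sequence, 2 in that of *Nap1l5* and 1 in that of *Snrpn*, and 17, 17 and 7 CpGs lie in them. None of the 11 sequences could be placed on the measured mm9 positions by the spacing of its CpGs, so no level below is assigned to a letter of them.

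Across the series, libraries held 22431861 to 68056783 methylation calls. The window calls were few by comparison, from 0 (*Mest* in WT-Pat replicate 1) to 1715 per window and library, on stretches of 136 bp in *Peg10*, 244 bp in *Kcnq1ot1*, 245 bp in *Nap1l5*, 648 bp in *Inpp5f*, 650 bp in *Snrpn*, 2945 bp in *Peg3* and 3826 bp in *Mest*. Different libraries read partly different positions of a window: 11 of the 132 positions had 5 reads in all 20. On chromosome Y, which enters the zygote with the sperm, the share of all calls was 3.44e-05% and 4.41e-05% in the oocyte libraries, 6.77e-05% to 0.00297% in the maternal pronuclei and 0.00597% to 0.0219% in the paternal pronuclei. The 8 mock pronuclear files list the chromosomes in alphabetical order and the 8 aphidicolin and 4 gamete files do not, so treatment and the handling of the files cannot be told apart.

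The gametes carried the difference that the label of these windows names. In oocytes the levels of replicates 1 and 2 were 92.3% and 95.5% at *Peg10*, 93.8% and 92.0% at *Nap1l5*, and 100% in both at *Mest*. They were 96.2% and 100% at *Peg3*, 98.0% and 95.4% at *Snrpn*, 99.2% and 91.5% at *Inpp5f*, and 98.5% and 97.3% at *Kcnq1ot1*. Sperm lay between 0 and 0.699% in the 14 values. For single positions, the calls of the libraries of a gamete were pooled. Of the 97 positions read in at least 1 library of each gamete, 90 were at 75% or more in oocytes and at 25% or less in sperm. The other 7 lay in *Nap1l5* (3), *Inpp5f* (2), *Peg3* (1) and *Snrpn* (1). These values are a description, since the windows stand for regions known to have this pattern.

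**Figure D1:**
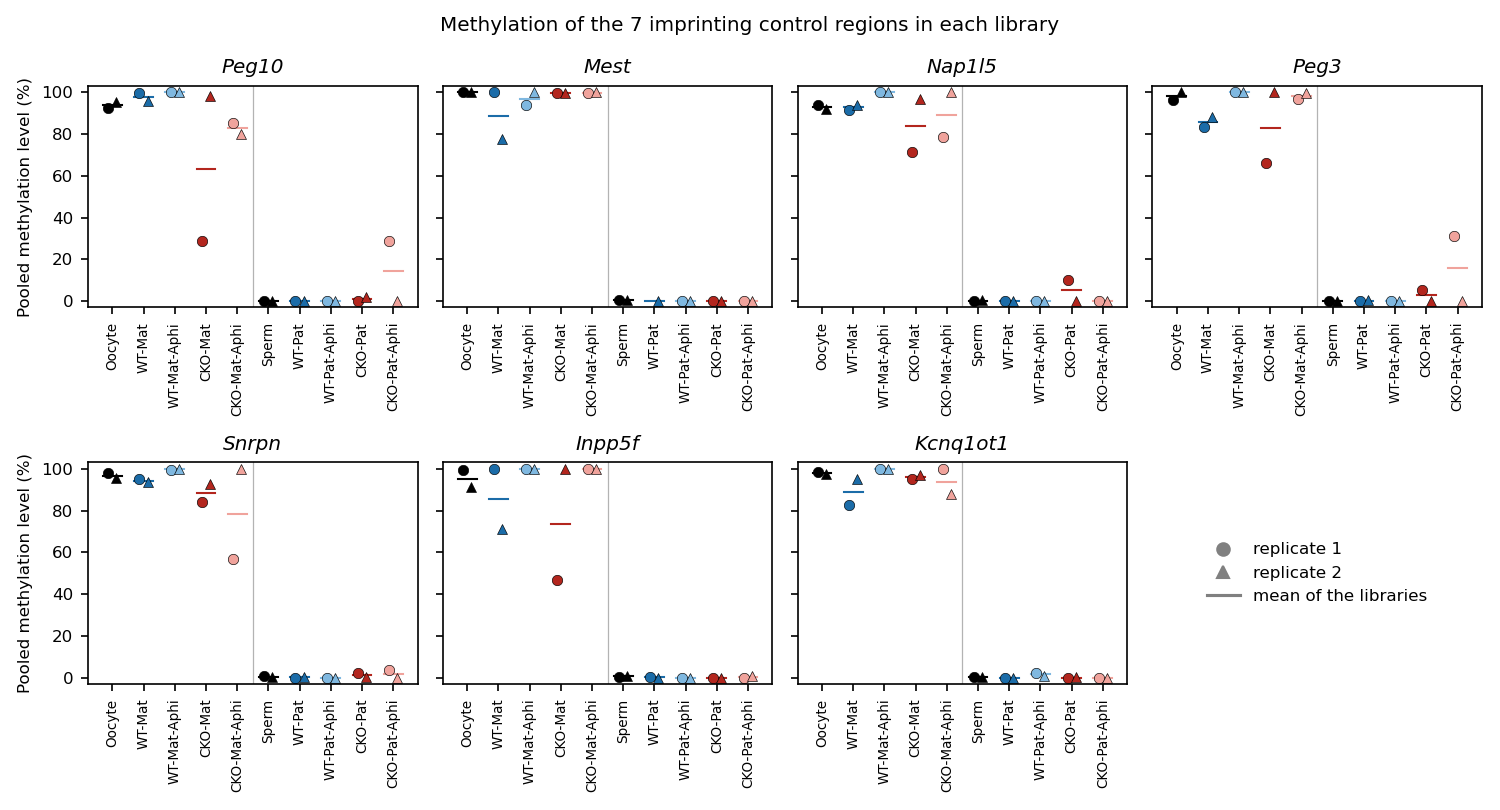
Pooled methylation level (y axis, percent) of each window in the 2 libraries of each of the 10 groups (x axis), with a line at their mean. The oocyte libraries sit at 91.5% or more and sperm at 0.699% or less in every panel, while CKO-Mat replicate 1 falls to 28.6% at Peg10 and CKO-Pat-Aphi replicate 1 rises to 31.3% at Peg3.

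The parental difference was present in the zygote. Of the 56 window values of maternal pronuclei, 41 were at 90% or more and the median was 98.9%; of the 55 paternal values 47 were under 1%, 36 were exactly 0, and the highest was 31.3%. Averaged over the 4 combinations of genotype and treatment, maternal minus paternal was 82.1 points at *Peg10*, 87.0 at *Peg3*, 89.4 at *Snrpn*, 89.6 at *Inpp5f*, 90.2 at *Nap1l5*, 94.3 at *Kcnq1ot1* and 96.3 at *Mest*. Within each combination the maternal libraries lay above the paternal ones in all 7 windows (for *Mest*, WT-Pat had replicate 2 only), an order in each combination that was found in 5.8% of all features and 93.7% of the tiles methylated in oocytes only. The quasi-binomial model called 6 of the 6 windows measured in all 16 pronuclear libraries higher on the maternal side (highest adjusted p = 3.01e-24), where 9.94% of 40584 features, the windows and 1000-bp tiles of the rest of the genome, were called higher and 23% lower. With the library as the unit, the exact two-sided stratified permutation test gave p = 0.00154 for each of the 7 windows, the smallest it can give, and 0.00738 after Benjamini-Hochberg adjustment over all features for the 6.

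Separation of every maternal from every paternal library held in 5 of these 6 windows, against 4.82% of all features and 89.5% of the 1339 tiles outside the windows that were methylated in oocytes only (at least 75% in both oocyte libraries and at most 25% in both sperm libraries, called oocyte-specific below; how many were measured depends on the libraries compared). The exception was *Peg10*, where CKO-Mat replicate 1 had 28.6% and CKO-Pat-Aphi replicate 1 had 28.8%. The 95% exact Clopper-Pearson intervals, 22.6% to 35.3% of 206 calls and 25.7% to 32.1% of 781 calls, overlap. Such intervals cover counting error only, because PCR copies were not marked. They also count CpG positions on the same reads as independent calls, so they are too narrow.

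Maternal pronuclei of WT mock zygotes were compared with oocytes to ask what remained on the maternal copy after fertilisation. *Nap1l5* had 91.6% in replicate 1 and 94.1% in replicate 2, and *Snrpn* 95.0% and 93.6%. *Peg10* had 99.9% and 96.0%, above both oocyte libraries, an order found in 5.28% of all features and 2.93% of oocyte-specific tiles. Lower values than in both oocyte libraries were found at *Peg3* with 83.3% and 88.2%, at *Kcnq1ot1* with 82.5% and 95.1%, and at *Snrpn*. In *Mest* (100% and 77.4%) and *Inpp5f* (99.7% and 71.0%) 1 library was near 100% and replicate 2 was low, and these groups overlapped the oocytes. At *Mest* the low values of replicate 2, 39.7% to 75%, lay at 3 positions without 5 reads in replicate 1. Where both libraries had reads in this window, both were at 100%.

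Differences of WT-Mat from oocytes ran from -12.3 points at *Peg3* to 4.06 at *Peg10*, with a median of -9.14 over the 7 windows, -7.41 over 1568 oocyte-specific tiles and -0.62 over all 66213 features. None of the 7 windows was called by the quasi-binomial model (adjusted p = 1 for each), 0 had an unadjusted p under 0.05, and limma on arcsine square roots called 0. The model called 0.298% of all features. Groups did not overlap, with WT-Mat lower, in 3 of 7 windows, an order found in 28.4% of all features and 59.2% of oocyte-specific tiles. The median rests on single libraries: it was -3.08 points without WT-Mat replicate 1 and -1.24 without WT-Mat replicate 2. Oocyte-specific tiles were chosen by their high level in these same oocyte libraries. Their median difference and their shares in this comparison are therefore not independent of that choice. Whether the windows differ from other oocyte-specific sequence in this comparison was not tested.

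In WT zygotes kept in aphidicolin the maternal copies were read at or near full methylation. All calls were methylated in both libraries at *Peg10*, *Nap1l5*, *Peg3*, *Inpp5f* and *Kcnq1ot1*, *Snrpn* had 99.6% and 100%, and *Mest* 93.8% and 100%. The depth behind the values at 100% was 30 to 873 calls, and the 30 calls of *Peg10* in replicate 2 leave a lower exact Clopper-Pearson bound of 88.4%. Those 30 calls lay at 5 positions with a median of 6 calls, taken below to lie on the same reads. The bound counts them as independent and is therefore too high. WT-Mat-Aphi lay above WT-Mat, with no overlap of the libraries, in 6 of 7 windows; *Mest* overlapped. For comparison this held for 18.3% of all 66213 features and 54.5% of oocyte-specific tiles. At *Nap1l5* and *Inpp5f* the WT-Mat-Aphi libraries had no position in common, so the order there does not compare the same positions.

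*Inpp5f* was higher by 14.6 points, *Peg3* by 14.2, *Kcnq1ot1* by 11.2, *Mest* by 8.22, *Nap1l5* by 7.13, *Snrpn* by 5.48 and *Peg10* by 2.07. Several of these values rest on 1 WT-Mat library. Without WT-Mat replicate 2, *Inpp5f* was at 0.26 points and *Mest* at -3.08, and without WT-Mat replicate 1 they were at 29.0 and 19.5. At *Mest* the WT-Mat libraries read partly different positions, so the position read and the library cannot be told apart there. *Kcnq1ot1* was at 4.93 without WT-Mat replicate 1 and 17.5 without replicate 2. On positions covered in every library of the fit, *Snrpn* differed by 0 points, *Peg3* by 13.7 and *Kcnq1ot1* by 18.4. *Peg10*, *Mest*, *Nap1l5* and *Inpp5f* had 0 positions covered in all 8 maternal pronuclear libraries. Their differences therefore compare libraries that read partly different positions. The median of 8.22 points stood beside 6.91 (quartiles 2.04 and 16.1) in oocyte-specific tiles and 0 over all features; without WT-Mat replicate 2 it was 4.81, with 6 windows higher and 1 lower. The model called 0 of 7 windows (0.359% of all features), 2 windows had an unadjusted p under 0.05, and limma on arcsine square roots called 0. Those 2 were *Peg3* (adjusted p = 0.761 in the quasi-binomial model) and *Kcnq1ot1* (adjusted p = 0.774). With 2 against 2 libraries the exact permutation test cannot go below 0.333, so the order of the groups at a single window carries little weight. The mean of oocyte-specific tiles moved in the same direction, from 82.2% and 84.6% in WT-Mat to 93.4% and 93.9% in WT-Mat-Aphi.

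CKO mock maternal pronuclei gave a wide spread between replicates. Replicate 1 had 28.6% at *Peg10*, 46.9% at *Inpp5f*, 65.9% at *Peg3*, 71.2% at *Nap1l5* and 84.0% at *Snrpn*. Replicate 2 had 98.2%, 100%, 100%, 96.9% and 92.5% at the same windows. *Mest* (99.8% and 99.7%) and *Kcnq1ot1* (95.2% and 97.2%) were high in both. The mean ± SD at *Peg10* was 63.4% ± 49.2 (n = 2) against 97.9% ± 2.76 (n = 2) in WT-Mat, and the groups overlapped.

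The quasi-binomial model called 0 of 7 windows between CKO-Mat and WT-Mat (0.174% of all features), 1 had an unadjusted p under 0.05 (*Peg10*, -34.5 points, adjusted p = 0.932), and limma on arcsine square roots called 0. Without CKO-Mat replicate 2, *Peg10* passed with an adjusted p of 0.0431 in a fit where the lone CKO-Mat library is assumed to vary like the other groups. The direction rests on replicate 1: the median difference over the windows was -6.08 points with both libraries and 5 windows lower, and 8.47 points with 6 windows higher when CKO-Mat replicate 1 was left out. Oocyte-specific tiles had a median difference of -5.48 points, and their mean was 77.1% and 79.8% in replicates 1 and 2. CKO-Mat lay below WT-Mat without overlap at *Snrpn*, 1 of 7 windows, an order found in 8.68% of all features and 32.7% of oocyte-specific tiles. It lay above WT-Mat without overlap at *Kcnq1ot1*, 1 of 7, against 18.7% of all features and 7.65% of those tiles.

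The library CKO-Mat replicate 1 also had the highest share of calls on chromosome Y among the 8 maternal pronuclear libraries, 0.00297%. Tiles methylated in sperm only had a mean of 8.67% there, 11.1% in CKO-Mat replicate 2, 3.15% and 3.45% in WT-Mat, and 3.53% and 3.55% in oocytes. The part of paternal DNA in the low values of this library was not tested.

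With aphidicolin the CKO maternal copies were read at 85.3% and 80.0% at *Peg10*, 57.0% and 99.8% at *Snrpn*, and 78.6% and 100% at *Nap1l5*. *Peg3* had 96.6% and 99.6%, *Kcnq1ot1* 99.9% and 87.7%, *Mest* 99.7% and 100%, and *Inpp5f* 100% in both. Replicate 1 was low at *Snrpn* and *Nap1l5* and replicate 2 at *Kcnq1ot1*, so no single library carried the low values of this group. Compared with CKO-Mat, 0 of 7 windows were called (0.367% of all features), 2 had an unadjusted p under 0.05 (*Peg3* with 15.1 points, adjusted p = 0.533, and *Inpp5f* with 26.6 points, adjusted p = 0.553), limma on arcsine square roots called 0, and the groups overlapped in all 7 windows. At *Inpp5f* the overlap was a tie at 100%. Of all features, 17.6% were higher and 13.1% lower without overlap. Of oocyte-specific tiles, 51.6% were higher and 1.98% lower without overlap. The median difference over the windows was 5.23 points, and -3.44 points without CKO-Mat replicate 1. In oocyte-specific tiles the median difference was 10.8 points.

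Set against WT-Mat-Aphi, CKO-Mat-Aphi was lower without overlap at *Peg10* (-17.3 points), *Kcnq1ot1* (-6.20) and *Peg3* (-1.94), 3 of 7 windows, where 6.31% of all features and 16.5% of oocyte-specific tiles showed this order. *Snrpn* differed by -21.4 points, with libraries that overlapped. The model called 0 of 7 (0.127% of all features), 0 had an unadjusted p under 0.05 and limma on arcsine square roots called 0. Leaving out CKO-Mat-Aphi replicate 1 brought the median difference from -6.20 to -0.02 points and that of *Snrpn* to -0.02, and leaving out replicate 2 brought *Kcnq1ot1* to -0.09.

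Over both genotypes, aphidicolin gave a higher maternal mean in 6 of 7 windows, by 20.6 points at *Inpp5f* and 14.7 at *Peg3* (exact stratified permutation p = 0.167 each); the difference at *Snrpn* was -2.19 points. Without CKO-Mat replicate 1 these were 7.32 at *Inpp5f* and 6.15 at *Peg3*, and without CKO-Mat-Aphi replicate 1 *Snrpn* was at 8.51. Over both treatments the CKO mean was lower in 5 of 7, with -25.9 points at *Peg10* and -13.7 at *Snrpn* (exact stratified permutation p = 0.111 each). *Peg10* was at -8.55 points without CKO-Mat replicate 1, and *Snrpn* at -3.05 without CKO-Mat-Aphi replicate 1. The smallest p that this design allows is 0.0556, and no window reached it. Neither effect passed Benjamini-Hochberg adjustment over all 66213 features (lowest adjusted value of a window 0.741 for aphidicolin and 1 for CKO). When only positions covered in all 8 maternal pronuclear libraries were used, 3 windows remained, with CKO differences of -5.39 points at *Peg3* (8 positions), 7.89 at *Kcnq1ot1* (5) and -32.7 at *Snrpn* (2 neighbouring positions, at that smallest p). Most of the *Snrpn* value came from CKO-Mat-Aphi replicate 1, which had no methylated call at these positions; without it the difference was -7.94 points. The interaction of aphidicolin with genotype was called at 0 of 7 windows (0.168% of all features), 0 had an unadjusted p under 0.05 and limma on arcsine square roots called 0.

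**Figure D2:**
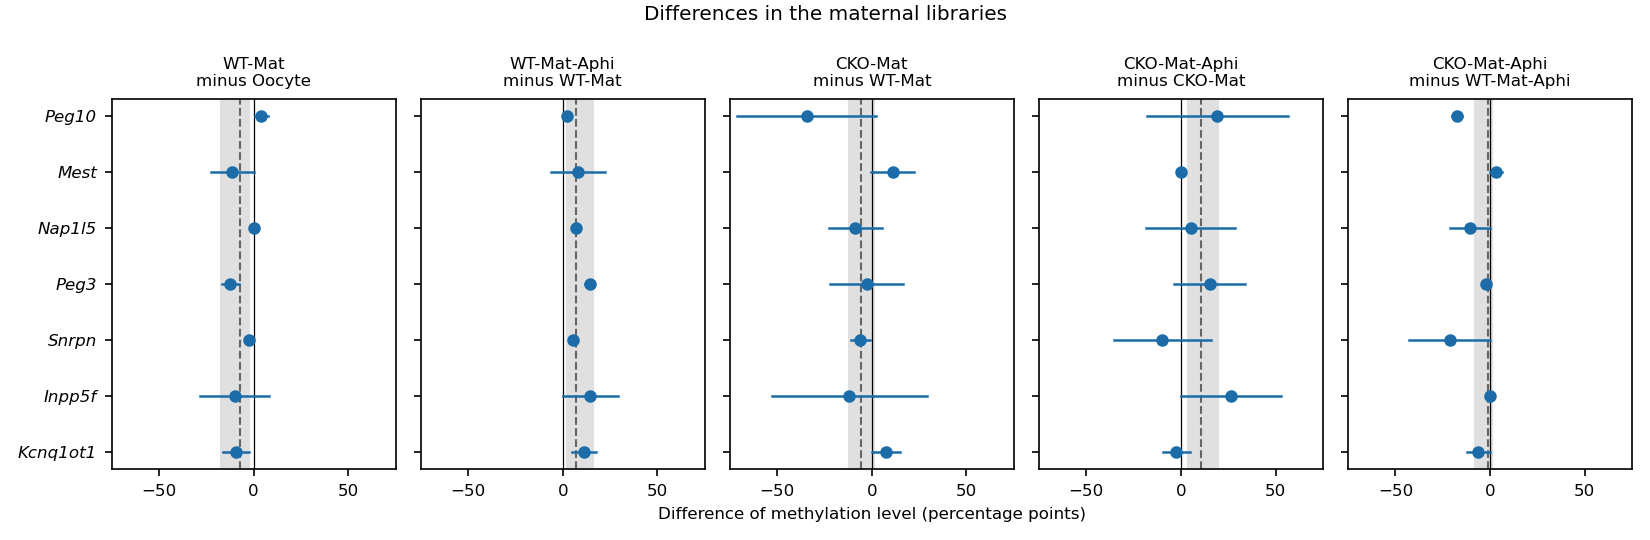
Difference of methylation level (x axis, percentage points) of each window in 5 comparisons of maternal libraries; the point is the difference of the means, the bar runs over the 4 differences between single libraries, the grey band is the interquartile range and the dashed line the median of 1568 oocyte-specific tiles. In WT-Mat-Aphi minus WT-Mat the 7 points lie between 2.07 and 14.6, and the bars of CKO-Mat minus WT-Mat reach from -71.2 to 2.18 at Peg10.

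Paternal copies were close to unmethylated in WT zygotes. In the 4 WT paternal libraries the highest value outside *Kcnq1ot1* was 0.504% (*Peg3*, WT-Pat replicate 2, 4 of 794 calls). *Kcnq1ot1* had 0 of 426 and 0 of 1076 calls in WT-Pat, the first of which allows a level of up to 0.704%, and 2.27% and 0.709% in WT-Pat-Aphi. *Mest* had no methylated call in any of the 7 paternal pronuclear libraries that read it, and the fewest calls, 100 in WT-Pat-Aphi replicate 2, allow up to 3%. Those 100 calls came from 5 positions with a median of 6 calls and 5 with a median of 14. The limits given for *Kcnq1ot1* and *Mest* count positions on the same reads as independent calls and are therefore too low. Differences of WT-Pat from sperm ran from -0.47 to 0.14 points over the 6 windows tested (*Mest* could not be tested for want of reads in WT-Pat replicate 1). The model called 0 of 6 in WT-Pat minus Sperm and 0 of 6 in WT-Pat-Aphi minus WT-Pat, where it called 21% and 10.8% of 50264 features; 0 windows had an unadjusted p under 0.05 and limma on arcsine square roots called 0 in both.

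The paternal values of 3% or more were in CKO libraries. CKO-Pat replicate 1 had 10.2% at *Nap1l5* (111 of 1092 calls), 5.16% at *Peg3* and 2.22% at *Snrpn*, and replicate 2 had 2.20% at *Peg10* and 0.246%, 0.254% and 0.140% at these 3 windows. CKO-Pat-Aphi replicate 1 had 31.3% at *Peg3* (145 of 463 calls), 28.8% at *Peg10* and 3.55% at *Snrpn*, and 0 at the other 4 windows. In CKO-Pat-Aphi replicate 2 only *Inpp5f* had methylated calls (4 of 431, 0.928%). In each pair the values of 3% or more came from replicate 1, at *Nap1l5* and *Peg3* in CKO-Pat and at *Peg3*, *Peg10* and *Snrpn* in CKO-Pat-Aphi. The model called 0 of 6 windows in CKO-Pat minus WT-Pat (0.34% of all features); 0 had an unadjusted p under 0.05 and limma on arcsine square roots called 0. CKO-Pat-Aphi against WT-Pat-Aphi was not tested.

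Both libraries with values of 3% or more stood apart in other measures. Their shares of calls on chromosome Y, 0.00597% in CKO-Pat-Aphi replicate 1 and 0.00752% in CKO-Pat replicate 1, were the lowest of the 8 paternal pronuclear libraries, and their means of 1888 oocyte-specific tiles, 12.6% and 12.7%, the highest, against 4.77% to 7.25% in the other 6. The part of maternal DNA in these values was not tested.

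**Figure D3:**
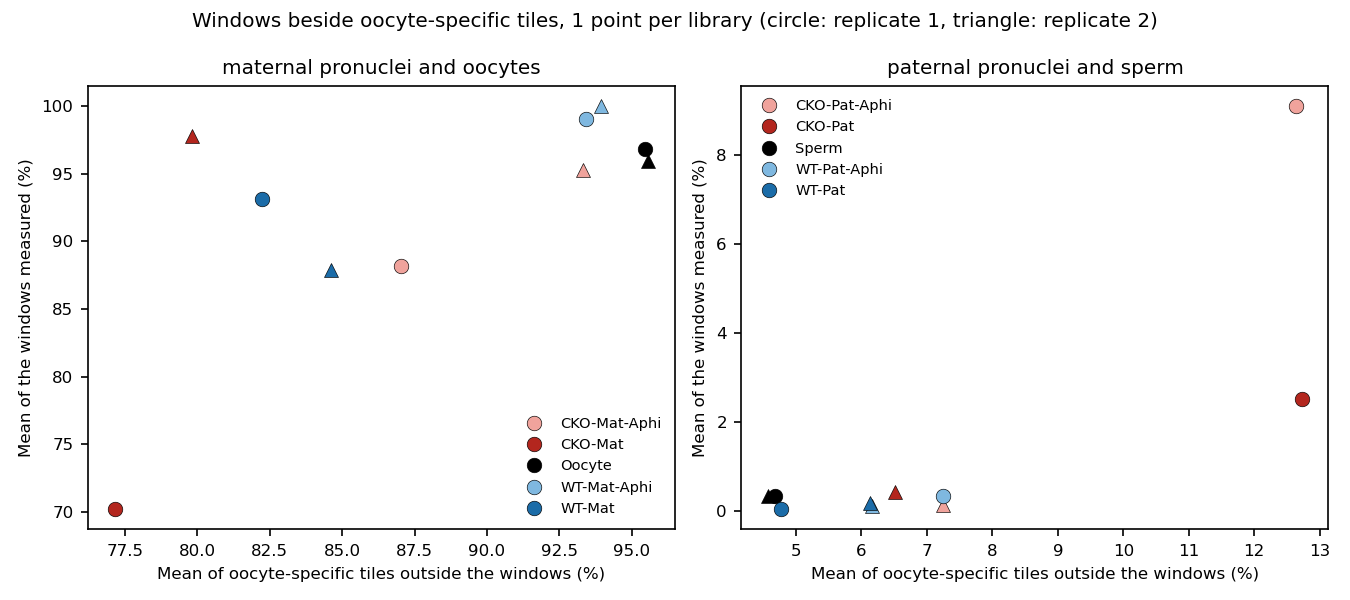
Mean level of the measured windows (y axis, percent) against the mean of oocyte-specific tiles outside them (x axis, percent), 1 point per library, for maternal (left) and paternal (right) libraries. CKO-Mat replicate 1 has the lowest window mean on the left, 70.2%, beside 77.1% in the tiles, and CKO-Pat-Aphi replicate 1 the highest on the right, 9.10%, beside 12.6%.

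Within a window, positions were also compared along the reads. Positions less than 150 bp apart whose depths were equal within 2 reads or 10% in at least 90% of libraries were joined into read groups, and taken to lie on the same reads. This gave 44 groups, 30 of them with 2 or more positions (118 positions). Neighbouring groups can be the opposite strands of the same sequence. A group was taken as methylated in a library when all of its positions were at 90% or more, and as unmethylated when all were at 10% or less.

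In sperm 51 of 51 readings of groups were unmethylated, as were 45 of 45 in WT-Pat. In maternal pronuclei 112 of 156 readings were methylated, 4 were unmethylated and 40 lay between; in oocytes 27 of 43 were methylated and 16 lay between. WT-Mat-Aphi had 30 methylated of 31, WT-Mat 29 of 45, CKO-Mat-Aphi 26 of 34 and CKO-Mat 27 of 46. The level between the limits arose in different ways: in 31 of the 40 maternal readings positions of one group differed by over 10 points, and in 9 they were within 10 points of each other.

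**Figure D4:**
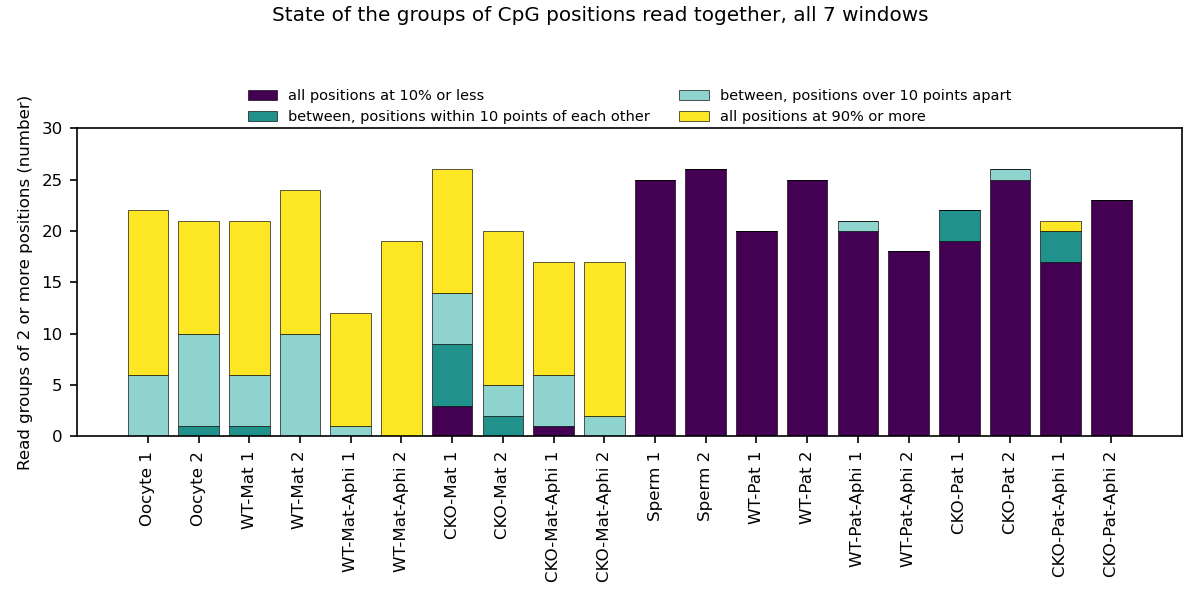
Number of read groups of 2 or more positions (y axis) in each library (x axis), stacked by state. WT-Mat-Aphi replicate 2 has 19 of 19 methylated, CKO-Mat replicate 1 has 3 unmethylated and 6 evenly intermediate of 26, and the sperm libraries are unmethylated throughout.

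Of the 4 unmethylated maternal readings 3 came from CKO-Mat replicate 1: the 6 positions of the third *Peg10* group with a median of 13 calls, and *Inpp5f* groups 1 (2 positions, 47 calls) and 3 (5 positions, 12 calls). The fourth was *Snrpn* group 2 in CKO-Mat-Aphi replicate 1, with 33 calls. In the same CKO-Mat library the first *Peg10* group lay at 30.4% to 56.5%, so adjacent stretches of 1 window differed. Without CKO-Mat replicate 1 the CKO-Mat group had 15 methylated and 0 unmethylated readings of 20.

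Of the 8 intermediate readings in paternal pronuclei, 4 in CKO-Pat, 3 in CKO-Pat-Aphi and 1 in WT-Pat-Aphi, 6 were even along the group. *Peg10* group 1 in CKO-Pat-Aphi replicate 1 was at 34.6% at each of its 5 positions (130 calls), while *Peg10* group 3 of that library was unmethylated. *Peg3* group 6 was at 46.3% at each of 4 positions and group 2 at 100% at 3 positions with 7 calls, the 1 fully methylated reading of 176 in paternal pronuclei, while *Peg3* group 5 had no methylated call. *Nap1l5* group 1 in CKO-Pat replicate 1 was at 27.1% to 28.1% at 3 positions and group 2 at 12.5% at 5. The files give no calls per read, so whether single reads were methylated throughout cannot be read from them.

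**Figure D5:**
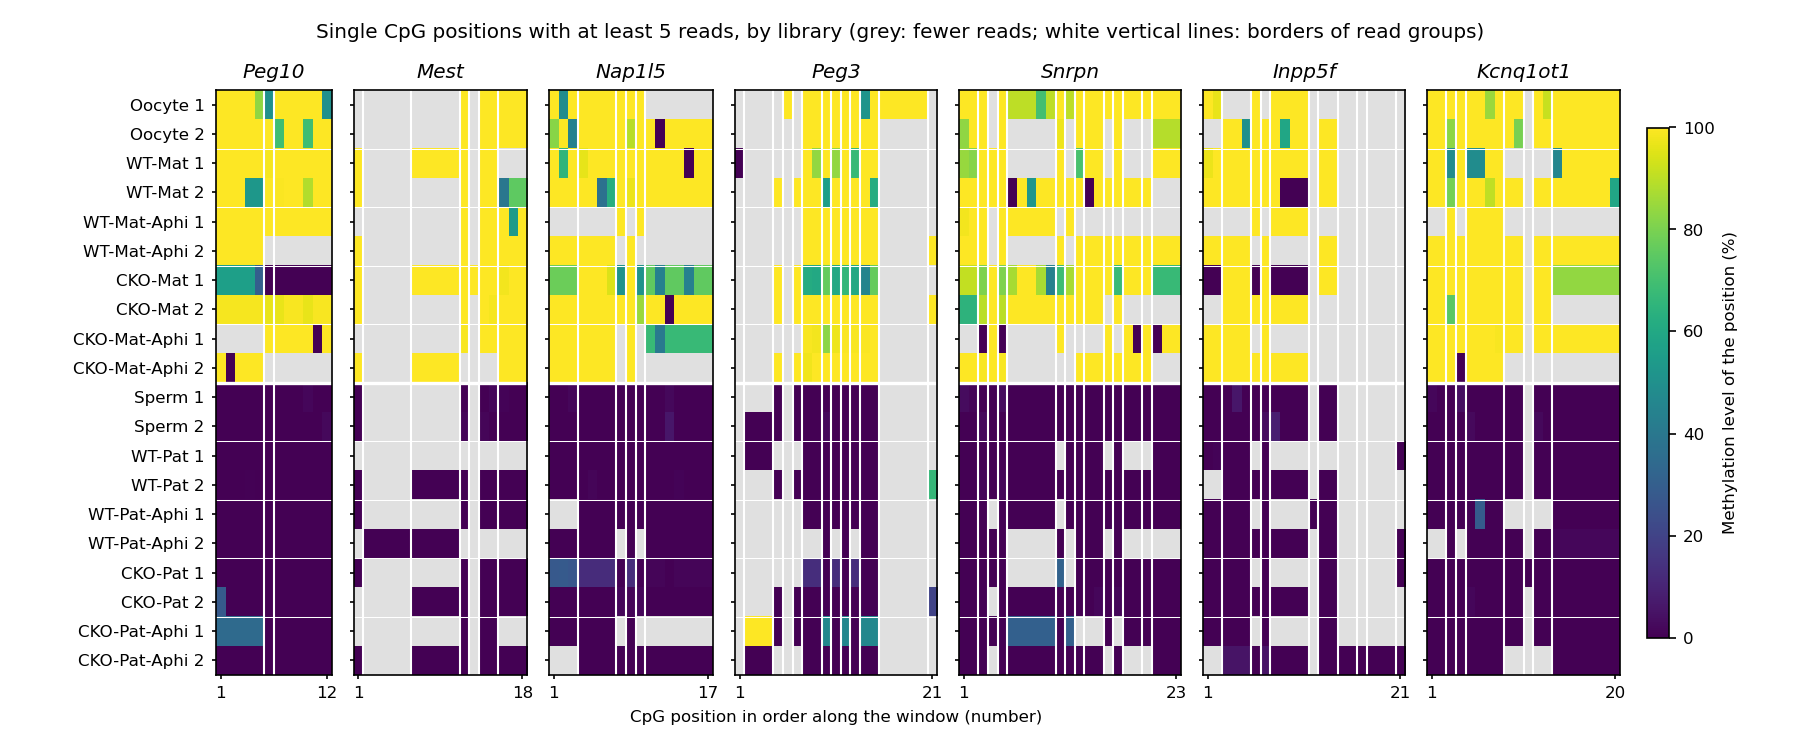
Methylation level (colour, percent) of every CpG position with at least 5 reads, in order along each window (x axis, position number), in the 20 libraries (y axis); grey cells had fewer reads and white vertical lines mark the borders of read groups. Maternal libraries are mostly at 90% or more and paternal ones at 10% or less, with whole blocks of CKO-Mat replicate 1 unmethylated at Peg10 and Inpp5f.

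Unmethylated positions also occurred within groups that were otherwise methylated. In 10 maternal readings a group held at least 1 position at 10% or less beside positions at 90% or more: 4 in WT-Mat, 5 in CKO-Mat-Aphi, 1 in CKO-Mat and 0 of 31 in WT-Mat-Aphi; 1 of 43 oocyte readings had one. By window, 4 were in *Snrpn*, 2 each in *Peg10* and *Nap1l5*, and 1 each in *Inpp5f* and *Kcnq1ot1*, with 0 in *Mest* and *Peg3*. Each had 1 such position except the *Inpp5f* case, in WT-Mat replicate 2, which had 3 of 5 positions at 10% or less with 12 calls, while the other 3 *Inpp5f* groups of that library were at 100%. Per position, 119 of 120 values were at 90% or more in WT-Mat-Aphi, 155 of 186 in WT-Mat, 154 of 175 in oocytes, 121 of 136 in CKO-Mat-Aphi and 127 of 191 in CKO-Mat. Positions of a group share their reads, and with about 20 pronuclei per library the number of original molecules behind a group is small and unknown, so these counts carry no test.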

How the data were processed

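Reduced representation bisulfite data of 20 mouse libraries were used. The submitters' processing notes name Trim Galore, Bismark 0.10.1 and the mm9 build; how reads were filtered or deduplicated is not given in the sources. The deposited files hold, for each CpG position on its strand, the count of methylated and the count of unmethylated calls, and a percent that the authors derived from these counts and that was recomputed without difference. Positions with at least 5 reads were pooled per window, and per 1000-bp tile outside the windows. Features with at least 2 such positions and 10 calls in each library of a fit were tested together (66213 maternal, 50264 paternal, 40584 pronuclear) with a quasi-binomial logistic model of the groups, an F test and Benjamini-Hochberg adjustment over all features. Dispersion was estimated where both kinds of call were expected at least 5 times per library, shrunk on depth with limma 3.58.1 squeezeVar in R 4.3.3, and floored at 1. Calls needed 10 points or more of difference and an adjusted p below 0.05. Exact stratified permutation tests took the library as the unit. Intervals are exact Clopper-Pearson at 95%, and a count of 0 allows 3 of all calls. Both treat every call as independent, although neighbouring positions can share reads, so the intervals and limits are too narrow. The model was also run on simulated data whose dispersion was set below the median of these data (39.6 in the maternal fit). That run does not show how the model behaves at the spread found here.

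The windows, tile classes and read groups, and the estimate of dispersion, were chosen with earlier results of these data known. All 7 windows are named by rule; single positions were to be named only on a placed promoter sequence. Other imprinted regions were not analysed here. Alternatives were other coverage minimums, positions shared by all libraries, limma on arcsine square roots, another floor, a replicate block and each library left out.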

Additional observations from a re-analysis of the deposited data

Results flagged for a closer look

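Chromosome Y, which the tests above do not use, gave calls in every maternal pronuclear library. In each the share lay above that of both oocyte libraries (3.44e-05% and 4.41e-05%, from 14 and 20 calls). The share of all calls was 0.000692% and 0.000198% in WT-Mat, 6.77e-05% and 0.000508% in WT-Mat-Aphi, 0.00297% and 0.000296% in CKO-Mat, and 0.00163% and 9.30e-05% in CKO-Mat-Aphi, replicate 1 first. The lowest maternal shares rest on few calls, 33 in WT-Mat-Aphi replicate 1 and 37 in CKO-Mat-Aphi replicate 2. The lowest share in a paternal pronuclear library was 0.00597%, and the sperm libraries had 0.0111% and 0.0117%.

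*Kcnq1ot1* differed between treatments in the direction of the CKO difference in the maternal pronuclei: both CKO-Mat libraries lay above both WT-Mat libraries (7.46 points between the means), and both CKO-Mat-Aphi libraries lay below both WT-Mat-Aphi libraries (-6.20 points). Taken singly, these orders were found in 18.7% of all features (CKO-Mat higher) and 6.31% (CKO-Mat-Aphi lower). The share of features with both was not computed, and the window was flagged because it showed both. Each difference rests on 1 library, since the first was 1.15 points without WT-Mat replicate 1 and the second -0.09 without CKO-Mat-Aphi replicate 2. The interaction itself, -13.7 points, had an adjusted p of 0.997 in the quasi-binomial model.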

How the results depend on the processing

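The number of windows called was the same as in the fit reported under a coverage minimum of 1 or 10 reads, limma on arcsine square roots and another floor of the dispersion, with 1 exception in the 10 comparisons: at 10 reads *Peg10* had too few calls in the maternal fit and in that of all pronuclei, and 5 windows were called in maternal minus paternal against 6. Leaving out 1 library changed it once, in CKO-Mat minus WT-Mat, where the count ran from 0 to 1. With positions covered in every library of the paternal fit, *Peg10*, *Nap1l5*, *Peg3*, *Snrpn*, *Inpp5f* and *Kcnq1ot1* could be tested, and 0 were called. In the maternal fit and that of all pronuclei, 3 windows could be tested in this way (*Kcnq1ot1*, *Snrpn* and *Peg3*). All 3 were called in maternal minus paternal. On these positions with equal weights, aphidicolin was higher in 2 of the 3 windows (6 of 7 as reported, 4 to 7 with a library left out), CKO in 1 of the 3 (also 1 without CKO-Mat-Aphi replicate 1, an alternative chosen after seeing the data; 2 of 7 as reported, 1 to 4 with a library left out) and maternal minus paternal in 3 of the 3 (7 with any library left out); fewer windows were tested there. Counts over all features moved more: WT-Mat-Aphi minus WT-Mat called 238 features, 11 to 236 under the alternatives; CKO-Mat minus WT-Mat 115, 1 to 281; CKO-Mat-Aphi minus CKO-Mat 243, 9 to 1051; CKO-Mat-Aphi minus WT-Mat-Aphi 84, 0 to 143; WT-Mat minus Oocyte 197, 11 to 206; the interaction 111, 0 to 136. In paternal libraries WT-Pat minus Sperm called 10543, 924 to 11935; WT-Pat-Aphi minus WT-Pat 5434, 55 to 7175; CKO-Pat minus WT-Pat 171, 13 to 470; maternal minus paternal 13368, 3081 to 15135. The cause was not tested. Without CKO-Mat replicate 1 and CKO-Pat-Aphi replicate 1, chosen after seeing the data, methylated readings were 75% in CKO-Mat (58.7% with it) and unmethylated ones 100% in CKO-Pat-Aphi (90.9%).

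Deviations of libraries with the same replicate number correlated at -0.02 to 0.02 between maternal groups and at -0.03 to 0.04 between paternal groups. Maternal and paternal libraries of the same number were not compared in this way. Whether libraries share zygotes or a preparation was not tested. With the number as a replicate block the windows called stayed at 0 in the 9 other comparisons and at 6 in maternal minus paternal, while 11 features were called in WT-Mat-Aphi minus WT-Mat.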
